A study of Solanum lycopersicum var. cerasiforme with 6 samples.

Results

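AP2a, AP2b, AP2c and AP2d are 4 APETALA2-like genes of tomato, and their transcripts were measured in young inflorescences that carried alternative alleles of fw2.3, a fruit weight locus. The 4 genes were taken by identifier, Solyc03g044300 (AP2a), Solyc02g064960 (AP2b), Solyc02g093150 (AP2c) and Solyc11g072600 (AP2d), out of 34081 rows in the count files, and each had 1 row. All 4 passed the filter on low counts, which left 20942 rows. The identifiers matched no entry of the RefSeq gene table (0 of 34081), so the names were taken as given with the identifiers. They were checked by chromosome alone, and for AP2b and AP2c also by order. RefSeq, assembly SLM_r2.1, places the genes of these names on chromosome 3 (AP2a), chromosome 2 (AP2b and AP2c) and chromosome 11 (AP2d), the chromosome of the identifier in 4 of 4 cases, with AP2b before AP2c on chromosome 2 in both.

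The plants were F3 progeny of Solanum lycopersicum var. cerasiforme grown in a greenhouse without pruning, and differed by label in the fw2.3 genotype alone. There were 3 pools that carried fw2.3-D, the derived allele, and 3 that carried fw2.3-WT, the wild-type allele. Each pool joined equal RNA from 2 plants, and tissue was taken while the largest floral bud was under 2 mm. A pool is thus a mean of whole inflorescences, meristems and young buds together, and fewer cells of a type cannot be told apart from less RNA per cell.

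APETALA2-like proteins are plant transcription factors with a pair of AP2 DNA-binding domains. In Arabidopsis, APETALA2 specifies sepals and petals, restrains the carpel and stamen gene AGAMOUS and affects how long the floral meristem is kept. Transcripts of this group carry a site for the microRNA miR172, which lowers their protein both by cleaving the transcript and by blocking its translation, so a transcript level does not give the protein level. SBP-box factors, themselves limited by miR156, act upstream of miR172 in Arabidopsis. In tomato, AP2a is best known from the fruit, where it holds back ripening and ethylene production. Neither microRNA was measured in these polyadenylated RNA libraries.

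The pools held 22303511 to 28504360 counts. The libraries kept no strand, so reads of an overlapping gene on the other strand would be counted with a member. The lowest count of any member was 243, far above the floor of 3 counts, which here equals 0.105 to 0.135 CPM (CPM being counts scaled to the library total) and covers counting error only. Every pair of pools differed by more than sampling noise, with chi-square values per gene of 14.1 to 55.2. Of 5 loci listed as young inflorescence markers, 5 were detected in every pool, with a summed level of 190 to 197 RPKM in fw2.3-D and 212 to 233 RPKM in fw2.3-WT. Of 5 loci listed for ripening fruit, 4 were detected in every pool and the other was listed at 0 in all, and the list summed to 15.1 to 18.6 RPKM in fw2.3-D and 14.2 to 18.6 RPKM in fw2.3-WT. The 3 leaf loci summed to 2200 to 2949 RPKM in fw2.3-D and 2270 to 2808 RPKM in fw2.3-WT, and the tapetum locus lay at 0 to 0.487 RPKM in fw2.3-D and 0 to 0.373 RPKM in fw2.3-WT. The summed level of the inflorescence markers thus did not overlap between genotypes. Taken singly, 9.49% of all tested genes did not overlap in CPM, which is no background for a sum in RPKM. The 5 loci are in the floral MADS-box and the flowering and meristem lists described below. In those lists 0 tested loci had an edgeR unadjusted p under 0.05. Mean levels of the 5 loci ran from 1.86 to 99.7 RPKM, so a few loci can set the sum. The part this plays in the values below was not tested. The marker loci were listed from remembered assignments and carry no name in the tables used.

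The 4 genes were all expressed in the inflorescence, in the same order of level in every pool. Levels of different genes are compared here in RPKM, reads scaled to gene length in kilobases and to the counted reads of the library, as deposited. AP2d was the most abundant member and AP2a the least, and the order AP2d, AP2c, AP2b, AP2a held in 6 of 6 pools.

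AP2d stood at 36.1, 41.9 and 46.5 RPKM in fw2.3-D pools 1 to 3, against 38.7, 37.1 and 34.6 RPKM in fw2.3-WT pools 1 to 3. Its mean over the 6 pools was 39.2 ± 4.37 RPKM (SD, n = 6), above the mean level of 89.0% of the 34075 rows of the RPKM table. Those rows include ones that failed the filter on low counts, which left 20942 rows. The percentages of rows here and below are thus not shares of expressed genes. The fw2.3-D pool 3 was the highest and the fw2.3-WT pool 3 the lowest, and fw2.3-D pool 1 lay below 2 of the fw2.3-WT pools.

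AP2c stood at 14.0, 16.5 and 15.8 RPKM in fw2.3-D pools 1 to 3, against 14.8, 11.7 and 19.9 RPKM in fw2.3-WT pools 1 to 3. The mean was 15.4 ± 2.75 RPKM (SD, n = 6), above 72.7% of rows. Both extremes were fw2.3-WT pools, and the fw2.3-D pools lay between them.

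AP2b stood at 9.75, 11.6 and 9.58 RPKM in fw2.3-D pools 1 to 3, against 8.45, 9.14 and 10.1 RPKM in fw2.3-WT pools 1 to 3. The mean was 9.77 ± 1.07 RPKM (SD, n = 6), above 63.8% of rows. By mean RPKM it ranked 12322 from the top, where 20942 rows passed the filter. The highest pool was fw2.3-D pool 2, and the fw2.3-WT pool 3 lay above the other two fw2.3-D pools.

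AP2a, the ripening repressor, stood at 6.94, 7.63 and 8.30 RPKM in fw2.3-D pools 1 to 3, against 8.33, 6.27 and 9.34 RPKM in fw2.3-WT pools 1 to 3. The mean was 7.80 ± 1.10 RPKM (SD, n = 6), above 60.0% of rows. By mean RPKM it ranked 13619 from the top, where 20942 rows passed the filter. As for AP2c, a fw2.3-WT pool was the highest and another the lowest.

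**Figure D1:**
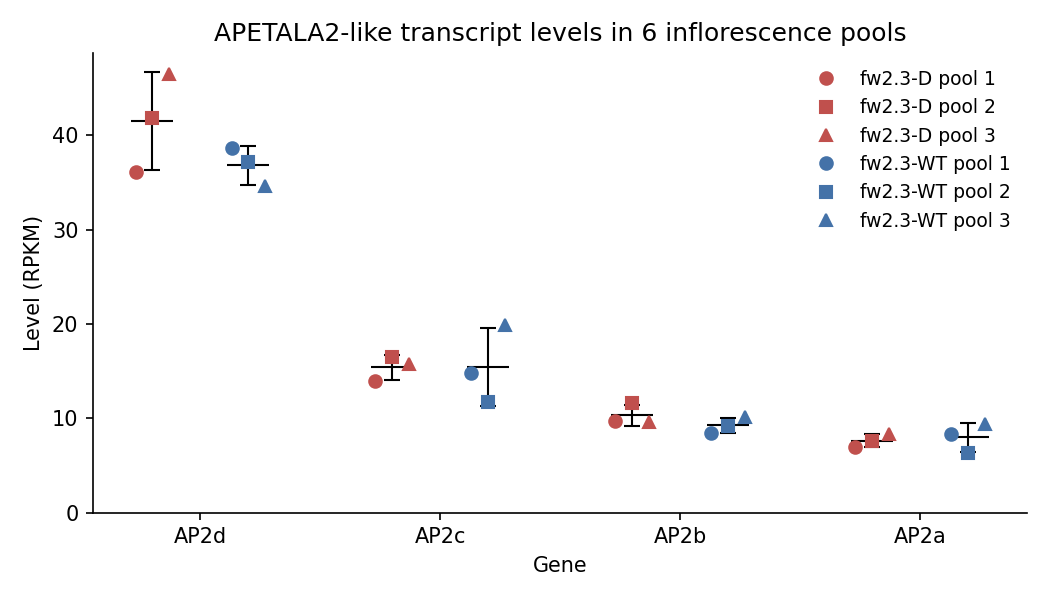
Level of each APETALA2-like gene in RPKM (vertical axis, from 0), with fw2.3-D pools in red left of fw2.3-WT pools in blue, 1 symbol per pool and the mean ± SD of 3 pools in black. AP2d lies at 34.6 to 46.5 RPKM and the other genes at 6.27 to 19.9 RPKM, and the genotypes overlap for each gene.

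Neighbours in this order differed by more than their spread over pools. Within a pool, AP2c stood at 0.315 to 0.575 of the level of AP2d, a mean log2 ratio of -1.35 ± 0.30 (SD, n = 6). AP2b stood at 0.509 to 0.781 of the level of AP2c, a mean log2 ratio of -0.64 ± 0.23 (SD, n = 6). The closest pair was AP2a and AP2b: AP2a stood at 0.657 to 0.986 of the level of AP2b, a mean log2 ratio of -0.33 ± 0.24 (SD, n = 6), and in fw2.3-WT pool 1 they were almost level. Each of the 6 pairs had an exact sign-flip permutation p of 0.0313, two-sided, which is the smallest that 6 pools allow and stayed 0.0313 after Benjamini-Hochberg adjustment over the 6 pairs. These ratios are on log2(RPKM + 0.1), and they depend on the gene length the authors used, which the counts and RPKM give as 1587 bases for AP2d, 2048 for AP2c, 2125 for AP2b and 1739 for AP2a. Reads that fit several genes equally well, if any, could shift a ratio, and how they were counted is not given in the sources used here.

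Together the 4 genes summed to 66.8, 77.6 and 80.1 RPKM in fw2.3-D pools 1 to 3, against 70.2, 64.2 and 74.0 RPKM in fw2.3-WT pools 1 to 3. The sum averaged 74.9 ± 7.10 RPKM in fw2.3-D and 69.5 ± 4.93 RPKM in fw2.3-WT (SD, n = 3 each). The log2 difference of 0.11 was within the spread between pools (exact permutation test, two-sided, p = 0.4, where the smallest p that 3 against 3 allows is 0.1). It depended on single pools, at 0.05 without fw2.3-WT pool 2, 0.05 without fw2.3-D pool 3 and 0.19 without fw2.3-D pool 1.

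AP2d made up the largest part of the sum in both genotypes, 55.4 ± 2.31% in fw2.3-D and 53.2 ± 5.73% in fw2.3-WT (SD, n = 3 each). AP2c held 20.6 ± 0.844% in fw2.3-D and 22.1 ± 4.43% in fw2.3-WT. AP2b held 13.8 ± 1.64% in fw2.3-D and 13.3 ± 1.15% in fw2.3-WT, and AP2a 10.2 ± 0.317% in fw2.3-D and 11.4 ± 1.49% in fw2.3-WT (SD, n = 3 each). The shares overlapped between genotypes for each gene, with exact permutation p-values of 0.8 for AP2d, 0.8 for AP2c, 0.6 for AP2b and 0.4 for AP2a, all 0.8 after adjustment over the 4 genes. The mix departed most in fw2.3-WT pool 3, where AP2d held 46.8% and AP2c 26.9%. In the other 5 pools AP2d held 54.0% to 58.0% and AP2c 18.2% to 21.3%. Without that pool the differences in share, fw2.3-D minus fw2.3-WT, were -1.08 percentage points for AP2d and 0.99 for AP2c, against 2.13 and -1.43 with it, so the direction of both rests on 1 pool. The AP2b difference of 0.53 was also near 0 and turned without single pools, to -0.03 without fw2.3-D pool 2 and -0.11 without fw2.3-WT pool 1, while that of AP2a, -1.23, was -2.06 without fw2.3-WT pool 2 and -0.62 without fw2.3-WT pool 3.

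**Figure D2:**
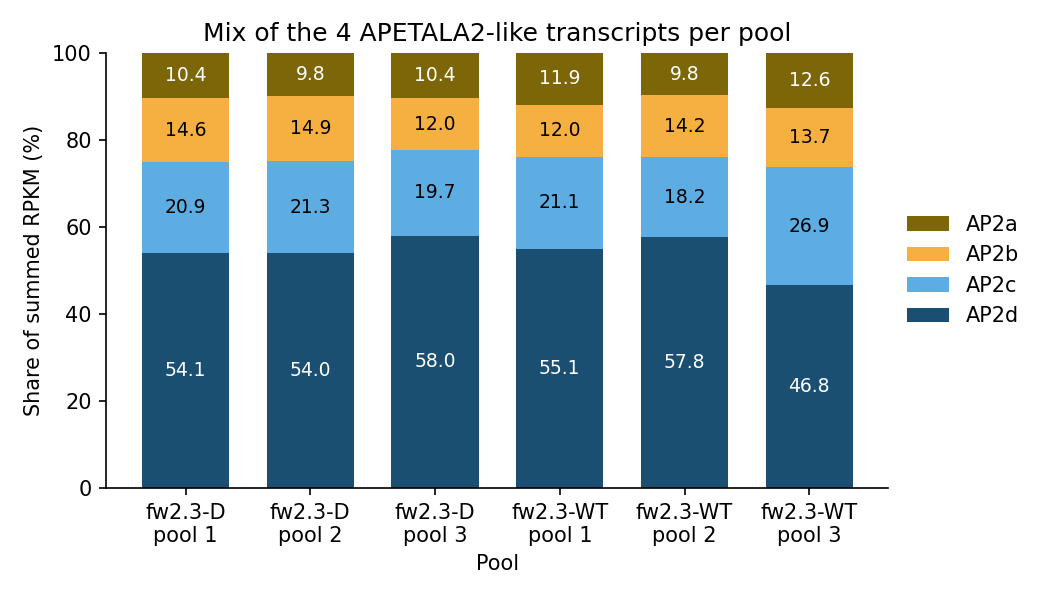
Share of the summed RPKM of the 4 genes (vertical axis, percent, from 0) held by each gene, 1 bar per pool, with the fw2.3-D pools left of the fw2.3-WT pools and the share printed in each segment. The bars are alike except for fw2.3-WT pool 3, with AP2d at 46.8% and AP2c at 26.9%.

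No APETALA2-like gene passed the test between the fw2.3 genotypes. With edgeR's quasi-likelihood test over all genes, 0 of 4 members were called (Benjamini-Hochberg adjusted p, threshold 0.05), where 0.0239% of all tested genes were. At an unadjusted p under 0.05 there were 0 of 4 members, against 3.56% of tested genes. DESeq2 also called 0 of 4, against 0.214% of its tested genes, with 0 at an unadjusted p under 0.05. The pools of the genotypes overlapped for each of the 4 members, while they did not overlap for 9.49% of tested genes. Over 4 genes these counts are near the background. Estimates lay above 0 for 3 members and below 0 for 1.

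The fw2.3-D pools gave 1482, 1895 and 1852 reads of AP2d, and the fw2.3-WT pools gave 1508, 1314 and 1316. On CPM with TMM factors, a scaling that evens out the composition of libraries, it averaged 66.3 ± 7.06 CPM across fw2.3-D pools, against 58.1 ± 4.65 CPM across fw2.3-WT pools (SD, n = 3 each). The fold change was 1.14 with a 95% interval of 0.944 to 1.38, or 0.19 on the log2 scale with an SE of 0.122 (adjusted p = 0.948 in edgeR). It was 0.32 without pool 1 of each genotype. The estimate for AP2d was the farthest from 0 of the 4, and 63.5% of tested genes had a smaller one in size.

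The fw2.3-D pools gave 536, 703 and 511 reads of AP2b, and the fw2.3-WT pools gave 441, 433 and 515. It averaged 22.1 ± 2.17 CPM across fw2.3-D pools, against 19.5 ± 1.28 CPM across fw2.3-WT pools (SD, n = 3 each), a fold change of 1.13 with a 95% interval of 0.926 to 1.39. The log2 fold change was 0.18, with an SE of 0.131 (adjusted p = 0.948 in edgeR). AP2b thus had nearly the same estimate as AP2d.

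The fw2.3-D pools gave 740, 964 and 810 reads of AP2c, and the fw2.3-WT pools gave 744, 534 and 976. It averaged 31.8 ± 1.99 CPM across fw2.3-D pools, against 31.3 ± 7.79 CPM across fw2.3-WT pools (SD, n = 3 each), a fold change of 1.01 with a 95% interval of 0.776 to 1.32. The log2 fold change was 0.02, with an SE of 0.173 (adjusted p = 0.994 in edgeR). Its sign was set by single pools: it was -0.14 without fw2.3-WT pool 2, -0.02 without fw2.3-D pool 2 and 0.22 without fw2.3-WT pool 3.

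The fw2.3-D pools gave 312, 378 and 362 reads of AP2a, and the fw2.3-WT pools gave 356, 243 and 389. It averaged 13.3 ± 0.945 CPM across fw2.3-D pools, against 13.8 ± 2.56 CPM across fw2.3-WT pools (SD, n = 3 each), a fold change of 0.969 with a 95% interval of 0.745 to 1.26. The log2 fold change was -0.05, with an SE of 0.170 (adjusted p = 0.977 in edgeR). It was -0.19 without fw2.3-WT pool 2, 0.06 without fw2.3-WT pool 3 and 0.004 without fw2.3-WT pool 1.

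For no member did the 95% interval reach above 1.39-fold or below 0.745-fold, and each interval held 1. An adjusted p far above the threshold does not show equal levels.

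**Figure D3:**
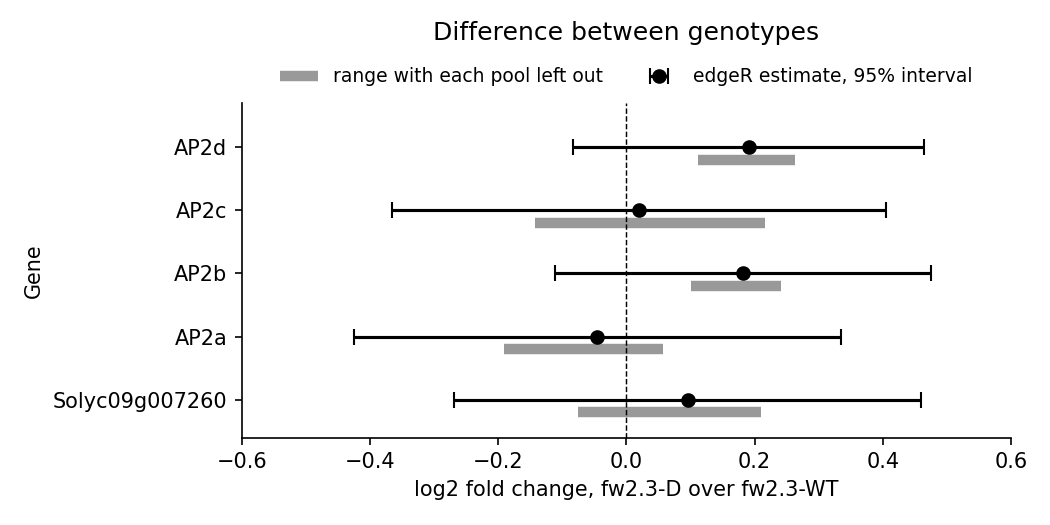
Log2 fold change of fw2.3-D over fw2.3-WT (horizontal axis) for the 4 APETALA2-like genes and Solyc09g007260, with black points and bars for the edgeR estimate and its 95% interval and grey bars for the range of estimates when each pool is left out in turn. Every black bar crosses 0, and the grey bars of AP2d (0.11 to 0.26) and AP2b (0.10 to 0.24) lie above 0 while those of AP2c, AP2a and Solyc09g007260 cross it.

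The members differed in how much they varied among pools of one genotype. AP2c varied with a coefficient of variation (CV, SD over mean CPM) of 6.26% among fw2.3-D pools and 24.9% among fw2.3-WT pools, and AP2a with 7.08% in fw2.3-D and 18.6% in fw2.3-WT. AP2d went the other way, with 10.7% in fw2.3-D and 8.01% in fw2.3-WT, as did AP2b, with 9.83% in fw2.3-D and 6.58% in fw2.3-WT. Among the 15849 tested genes that averaged 5 CPM or more, the median CV was 12.0% in fw2.3-D and 10.9% in fw2.3-WT, and 43.6% of them varied more in fw2.3-WT. The CV of AP2c in fw2.3-WT was above that of 91.3% of these genes and that of AP2a above 80.5%, while in fw2.3-D both lay in the lower part, above 18.4% and 22.8%. Counting error alone gives a CV of at most 4.33% for AP2c and 6.42% for AP2a at their counts. With 3 pools a genotype, no test of the difference in spread was made.

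The spread of AP2c and AP2a in fw2.3-WT came from the same pools. In fw2.3-WT pool 2, AP2c lay 0.39 and AP2a 0.31 below the mean of its 6 pools on the log2 CPM scale (deviations of -0.39 and -0.31). In fw2.3-WT pool 3 the deviations were 0.34 for AP2c and 0.22 for AP2a, while AP2d had its lowest value there, at -0.22. AP2d was highest in fw2.3-D pool 3, at 0.25, and AP2b in fw2.3-D pool 2, at 0.24.

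Over the 6 pools AP2a and AP2c had Pearson's r = 0.88 on log2 CPM (exact permutation p = 0.0278, adjusted p = 0.167 over the 6 pairs; Spearman's rho = 0.77, exact permutation p = 0.103, adjusted p = 0.617). The relation did not pass the correction. Without fw2.3-WT pools 2 and 3, the farthest from the median of AP2a, r was 0.19. Leaving out the extreme pools of AP2a narrows its range, which can lower r for a true relation too, so this fall decides nothing. The other 5 pairs of members had r from -0.11 to 0.37 and rho from -0.14 to 0.43, with exact permutation p-values of 0.469 to 0.997 for r and 0.419 to 1 for rho. Their adjusted p-values were 0.997 for r and 1 for rho in each case. Without the 2 pools farthest from the median, these 5 had r from -0.71 to 0.67. All pairs share libraries and depth.

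**Figure D4:**
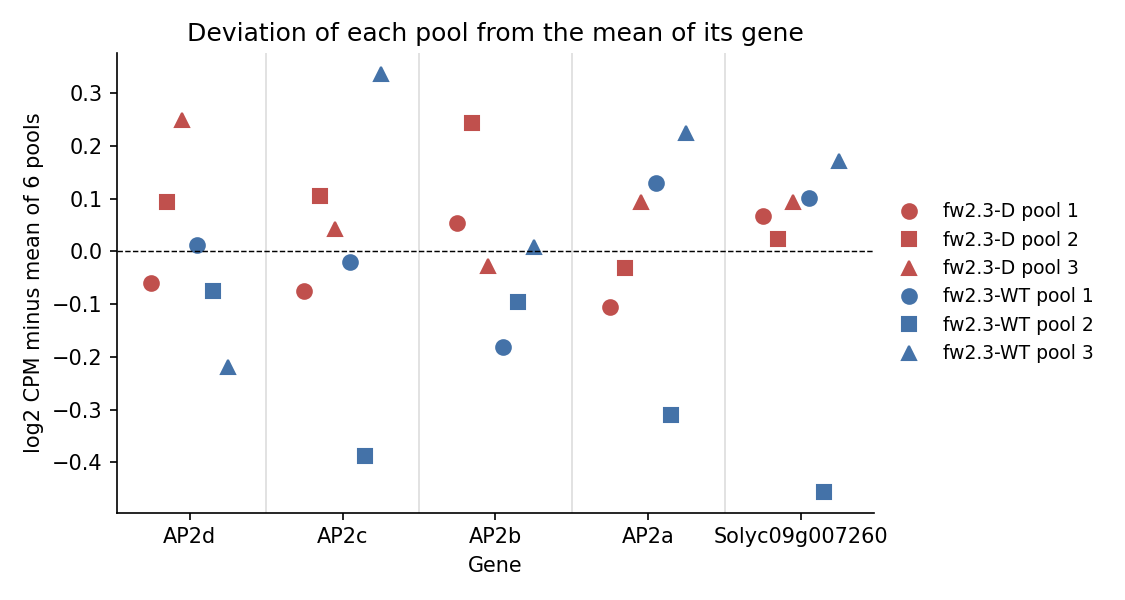
Deviation of each pool from the mean of 6 pools in log2 CPM with TMM factors (vertical axis), for the 4 APETALA2-like genes and Solyc09g007260, with fw2.3-D pools in red, fw2.3-WT pools in blue and 1 symbol per replicate number. For AP2c, AP2a and Solyc09g007260, fw2.3-WT pool 3 is the highest and fw2.3-WT pool 2 the lowest, while for AP2d fw2.3-WT pool 3 is the lowest, at -0.22.

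Solyc09g007260 was tested beside the members as a locus remembered as a further APETALA2-like gene, but RefSeq places the gene named AP2e on chromosome 6, so the locus is given by identifier with no name or role. It had 15.6, 15.8 and 16.5 RPKM in fw2.3-D pools 1 to 3, against 16.3, 11.3 and 18.0 RPKM in fw2.3-WT pools 1 to 3, close to AP2c in level. Its log2 fold change was 0.10, with an SE of 0.163 (adjusted p = 0.960 in edgeR), and -0.08 without fw2.3-WT pool 2, where it had its lowest value. Its CV was 2.47% in fw2.3-D and 22.1% in fw2.3-WT.

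For each member, the gene whose log2 CPM followed it most closely over the 6 pools was taken from the other tested genes that averaged 1 CPM or more, 19379 for each. They were Solyc02g094190.3 for AP2d (r = 0.98), Solyc08g006070.4 for AP2c (r = 0.99), Solyc08g074890.4 for AP2b (r = 0.99) and Solyc04g050220.2 for AP2a (r = 0.99). Of the candidates, 52 had r above 0.9 with AP2d, 153 with AP2c, 125 with AP2b and 116 with AP2a. Each r is the highest of 19379 over 6 pools, so a value near 1 comes with the search itself and is no sign of a relation. The numbers of genes above 0.9 were not set against those that unrelated genes would give. These are descriptions over pools that share libraries, and the tables used pair none of these identifiers with a name.

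AP2b and AP2c lie on chromosome 2, for which fw2.3 is named. The 1 called row of chromosome 2, Solyc02g090750.4, had a log2 fold change of -2.40 (edgeR adjusted p = 0.0178). Whether it shares reads with other rows was not tested. Solyc02g090750.4 is separated in identifier order from AP2c by 195 tested rows and from AP2b by 1591. Of the 20 tested genes nearest to each member in identifier order, 0 were called for any member, against 0.0239% of all tested genes. At an unadjusted p under 0.05 there were 2 of 20 for AP2d, 2 for AP2c, 0 for AP2b and 0 for AP2a, against 3.56% of tested genes. The median log2 fold change of these neighbours was 0.03 for AP2d, 0.01 for AP2c, -0.01 for AP2b and 0.01 for AP2a. The neighbours of AP2d ran from -0.40 to 0.36 and those of AP2b from -0.25 to 0.32, so both members lay within the range of their neighbours.

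Gene groups that stand around APETALA2-like factors in the control of flowering also gave no call, where edgeR called 0.0239% of all tested genes. In lists this short, 0 calls are near that background. Of 14 loci listed as SBP-box genes, 14 were tested and 0 were called by edgeR in either direction, with log2 fold changes from -0.31 to 0.28, a median of -0.02, and 8 below 0. Of 18 loci listed as floral MADS-box genes, 17 were tested and 0 were called, with log2 fold changes from -0.32 to 0.96, a median of 0.01, and 7 below 0. Of 10 loci listed for flowering and meristem identity, 9 were tested and 0 were called, with log2 fold changes from -0.67 to 0.15, a median of -0.08, and 7 below 0. The median over all tested genes was 0.0008. In each list 0 members had an unadjusted p under 0.05 in edgeR, against 3.56% of tested genes. DESeq2 called 0 members of each list, against 0.214% of its tested genes. The 2 untested loci had too few counts for the filter. The MADS-box and the flowering and meristem lists also hold the young inflorescence marker loci, and the MADS-box list holds a ripening fruit marker locus. The markers and these lists are thus not separate sets. The lists were filled with remembered locus numbers that the tables used do not annotate, so their loci are not named.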

How the data were processed

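RNA from young inflorescences was counted in 6 pools. The authors deposited whole-number read counts per gene for each pool, not normalized, in 34081 rows, and a table of RPKM in 34075 rows, in which counts are scaled to gene length and library total. The submitters' processing notes list cutadapt, STAR and edgeR and give neither role nor version. Which program counted the reads, with which annotation, and what was done with multi-mapping reads is not given in the sources used here. RPKM and counts together gave 1 gene length per member in every pool. The name of the deposited RPKM table gives the build SL4.0, while the RefSeq table is of SLM_r2.1, so no coordinates are printed. Each value column was tied to its pool through the library name.

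Genes were tested over the whole table with edgeR 4.0.16 in R 4.3.3 (glmQLFit, glmQLFTest, two-sided, TMM factors, filterByExpr with a minimum count of 10, genotype as the single term). A fold change sets fw2.3-D over fw2.3-WT. SE is the log2 fold change over the square root of F, and the 95% interval uses the total degrees of freedom of the fit. Levels were tested with an exact sign-flip permutation test coded directly. Shares, the summed level and correlations were tested with exact permutation tests in scipy 1.17.1. Labels describe pools of different plants, so p-values of the other tests refer to the spread between pools. In each of the 6 pairs of levels all 6 pools had the same direction. This alone fixes the sign-flip p at 0.0313, so that p does not measure the size or spread of a ratio. Alternatives were RLE factors, other filters, DESeq2 1.42.0, the replicate block, limma 3.58.1 on log2(RPKM + 1) and log2(RPKM + 0.1), other pseudocounts, each pool left out and the first pools left out. The members and lists were chosen with earlier results of these data known. Named genes were the members, Solyc09g007260 and the gene most like each member. Solyc02g090750.4 was named after its values were seen.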

Additional observations from a re-analysis of the deposited data

How the results depend on the processing

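No alternative called a member: over 56 alternative values of the 4 fold changes, 0 had an unadjusted p under 0.05, and 51 kept their direction. The log2 fold change of AP2a turned to 0.047 when pool 1 of each genotype was dropped, which also moved AP2d to 0.32 (edgeR adjusted p = 0.910), its highest value here. Dropping single pools gave -0.19 to 0.058 for AP2a, 0.10 to 0.24 for AP2b, -0.14 to 0.22 for AP2c, 0.11 to 0.26 for AP2d and -0.076 to 0.21 for Solyc09g007260. With the replicate block it was -0.03 for AP2a, 0.18 for AP2b, 0.05 for AP2c and 0.19 for AP2d. The replicate numbers were not taken as pairs, since the correlations between deviations of pools with one number were 0.411, -0.140 and 0.0813, and 2 of 6 pools had their highest such correlation across genotypes with their own number. By chi-square per gene, the pools numbered 1 (14.1) and those numbered 3 (21.4) were each nearest to one another across genotypes, and those numbered 2 were not. The value of 14.1 was the lowest of all pairs of pools, and that of the pools numbered 2 (55.2) the highest. Pairs within fw2.3-D ran from 30.2 to 46.1 and those within fw2.3-WT from 18.7 to 34.8. The main test leaves the replicate number out. The order of levels kept its direction throughout, but fewer than 6 pools cannot pass the sign-flip test. Without pool 1 of each genotype (exact sign-flip permutation p = 0.125, the smallest 4 pools allow), the mean log2 ratio was -0.36 for AP2a over AP2b, -0.999 for AP2a over AP2c, -2.34 for AP2a over AP2d, -0.63 for AP2b over AP2c, -1.97 for AP2b over AP2d and -1.34 for AP2c over AP2d. Dropping single pools gave -0.39 to -0.27, -0.999 to -0.942, -2.41 to -2.27, -0.70 to -0.58, -2.04 to -1.94 and -1.46 to -1.29. The correlation of AP2a with AP2b was 0.083 without TMM factors, against -0.06 with them, and that of AP2a with AP2d was -0.026 with RLE factors, against 0.02 with TMM. The share differences moved with single pools, by up to about 1 SD between pools: dropping single pools gave -2.06 to -0.62 percentage points for AP2a, -0.11 to 1.47 for AP2b, -3.35 to 0.99 for AP2c and -1.08 to 4.42 for AP2d, and dropping pool 1 of each genotype gave -0.50 for AP2b. The log2 difference of the summed level was 0.19 without pool 1 of each genotype. Over all genes the count of 5 calls was 13 without a filter, 48 with DESeq2, 10 with the replicate block, 0 and 0 with limma on log2(RPKM + 1) and log2(RPKM + 0.1) and 21 without pool 1 of each genotype, and 0 to 18 when single pools were dropped. The cause was not tested. The lists kept 0 calls under every alternative run.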
